A study of Mus musculus with 2 samples.

Results

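The nuclear lamins and envelope proteins are a set of 9 mouse genes, *Lmnb1*, *Lmnb2*, *Lmna*, *Lbr*, *Tmpo*, *Banf1*, *Emd*, *Sun1* and *Sun2*, chosen by name and matched by Ensembl identifier to the expression table of single neurosphere cells. Of the 9 genes, 7 are listed in the table used here, among 10666 genes in all. *Lmnb2* and *Banf1* were not analysed here. The rule uses no measured value. In GRCm38, by GENCODE vM21, the 7 genes lie on 7 chromosomes: *Lmnb1* at chr18:56707813-56753424 on the plus strand, *Lmna* at chr3:88480147-88509956 on the minus strand, *Tmpo* at chr10:91147571-91181315 on the minus strand, *Lbr* at chr1:181815335-181843046 on the minus strand, *Emd* at chrX:74254687-74261548 on the plus strand, *Sun1* at chr5:139200637-139249840 on the plus strand and *Sun2* at chr15:79724070-79742536 on the minus strand.

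The nuclear envelope is lined on its inner face by the lamina, a mesh of lamin filaments to which chromatin is anchored. B-type lamins, encoded by *Lmnb1* and *Lmnb2*, stay bound to the membrane and are made in nearly all cells, whereas A-type lamins, the spliced products lamin A and lamin C of *Lmna*, increase as cells differentiate, and neural progenitors are known for a lamina rich in B-type lamins. In mitosis the lamina is taken apart by phosphorylation and the membrane withdraws into the endoplasmic reticulum, and both are rebuilt around the daughter chromosomes, where the LEM-domain proteins encoded by *Tmpo* and *Emd*, with their DNA-binding partner encoded by *Banf1*, the lamin B receptor and the SUN proteins return to the new envelope.

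The cells came from 2 replicate cultures of neurospheres, spheres of neural stem cells and their progenitors that grow in suspension. Both cultures were wild type, started from the dorsal telencephalon of C57BL/6 embryos at embryonic day 14.5 and fed with EGF and bFGF at 10 ng/ml each, so that there is 1 condition and no control group. Single-cell libraries were made with the 10x Genomics Chromium 3′ chemistry, for which the labels and the methods name different kit versions. The cultures hold 5748 and 7057 cells, with a median of 19477 UMIs (unique molecular identifiers, each one captured transcript) per cell in culture 1 and 14637 in culture 2, and 48 cell barcodes occur in both cultures. The labels do not say whether the replicates come from separate litters. Cells of 1 culture are not replicates, so no p-value is given, and each value is given for both cultures.

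The labelled tissue was checked against marker genes. Of 7 markers of radial glia and neural progenitors, 6 are listed in the table, and *Fabp7* was detected in 100% and 99.96% of cells of cultures 1 and 2, *Vim* in 99.2% and 99.9%, *Nes* in 93.3% and 89.8%, *Slc1a3* in 92.1% and 94.0%, *Hes1* in 44.5% and 50.5% and *Pax6* in 21.1% and 23.1%. *Olig2*, a marker of oligodendrocyte progenitors that growth-factor culture is known to induce, was detected in 97.3% and 91.9% of cells, against 8.77% and 1.81% for *Pdgfra* and 4.26% and 0.75% for *Sox10* and 11.8% and 13.7% for *Cspg4*. The neuronal marker *Dcx* was detected in 7.34% and 1.56% of cells and *Rbfox3* in 3.78% and 4.31%, and the astrocyte markers *Aldh1l1* in 43.2% and 28.8% and *S100b* in 18.6% and 6.65%. None of the 12 listed markers of microglia, endothelial and mesenchymal cells is in the table, so these cells could not be looked for.

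Levels were followed along the cell-cycle position that the authors assigned to each cell, an angle between 0 and 2π computed from cell-cycle genes. Landmark genes give the angle its meaning. On a smooth periodic line through log2(value + 1), the replication clamp gene *Pcna* was highest at 0.75π, the helicase gene *Mcm6* at 0.68π, the topoisomerase gene *Top2a* at 0.99π, the mitotic cyclin gene *Ccnb1* at 1.29π and *Cdc20*, an activator of the anaphase-promoting complex, at 1.33π, as means of the cultures. Maxima of this wide line can be shifted. In classes of 0.1π the highest was centred on 0.85π for *Pcna* and 1.15π for *Ccnb1* in both cultures. For *Cdc20* it was centred on 1.15π in culture 1 and 1.25π in culture 2. Between 1.75π and 2π, where all of these were low, lay 1789 cells of culture 1 and 3149 of culture 2. In its analysis of a fetal atlas, the paper counted positions in this range as non-proliferating, G1 or G0. A gene was counted as varying with the position where a curve of 2 harmonics of the angle explained at least 5% of the variance of its log2 values (R² of 0.05) in each culture.

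By this rule 3 of the 7 genes, *Lmnb1*, *Tmpo* and *Lbr*, varied with the position, against 4.01% of all genes in the table. With the total UMIs of the cell in the fit the same 3 genes were counted, against 3.86% of all genes. The lower R² of the cultures was 0.417 for *Tmpo*, 0.377 for *Lmnb1* and 0.0611 for *Lbr*, which are ranks 33, 42 and 361 among the genes of the table. *Lmna* had 0.0185, *Emd* 0.0143, *Sun2* 0.0117 and *Sun1* 0.00278, so that the position accounted for little of their variation between cells. The median over the 7 genes was 0.0185, beside 0.00183 over all genes. *Tmpo* and *Lbr* are in the G2M list of Seurat, and which of the 7 genes the authors' own position used was not determined here. When the position was rebuilt from 88 cell-cycle genes that include none of them, the same 3 genes were counted, beside 422 genes of the whole table. The direction and the zero of the rebuilt angle were set, in each culture, to lie closest to the authors' position. After this alignment cells had moved by a median of 0.0303π and 0.0290π in cultures 1 and 2.

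**Figure D1:**
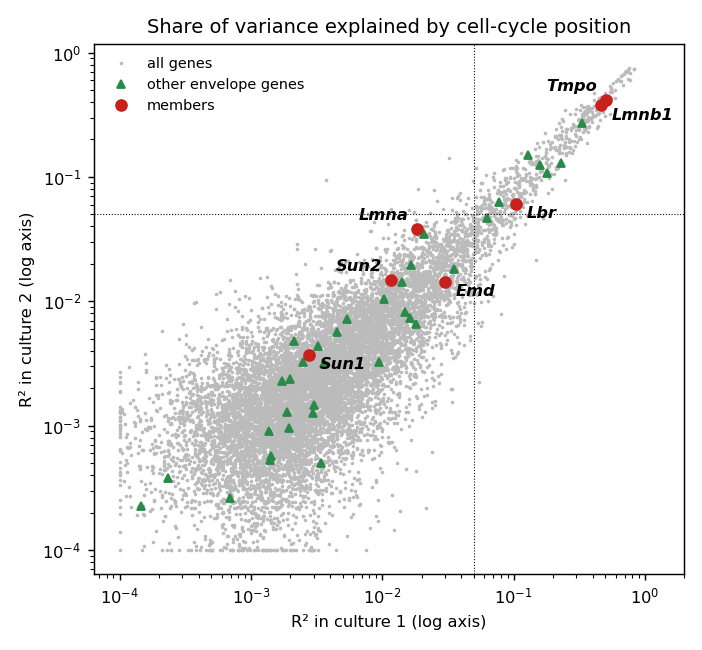
Share of the variance of log2(value + 1) explained by the cell-cycle position, in culture 1 (horizontal) and culture 2 (vertical), both on log axes. Grey points are all genes, green triangles 35 other genes of the nuclear envelope and red circles the 7 members, values under 0.0001 are drawn at 0.0001, and dotted lines mark 0.05; *Tmpo*, *Lmnb1* and *Lbr* lie beyond both lines.

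*Lmnb1*, the B-type lamin gene, rose through the positions of DNA replication, stayed high beyond π and fell last of the 3 genes that varied. In culture 1 its mean log2(value + 1) in successive classes of 0.25π from 0 to 2π was 0.88, 1.23, 1.59, 1.90, 2.27, 2.26, 1.97 and 0.50. In culture 2 the same means were 0.65, 1.09, 1.37, 1.67, 2.02, 1.82, 1.59 and 0.48. Every class from 0.25π to 1.75π lay above the first and the last class in both cultures. Cells at 1π to 1.25π had a mean deposited value, already scaled for depth, 7.03-fold that of cells at 1.75π to 2π in culture 1 and 5.86-fold in culture 2. The smooth line was highest at 1.28π and 1.20π and ranged over 1.58 ± 0.12 on the log2 scale (mean ± SD, n = 2 cultures). *Lmnb1* was detected in 73.2% of cells of culture 1 (exact 95% binomial interval 72.0% to 74.3%) and in 56.4% of culture 2 (55.2% to 57.6%), intervals that cover counting error only. At 1.75π to 2π it was still detected in 40% and 32.0% of cells, at median depths of 18437 and 13991 UMIs. The culture with fewer UMIs per cell has the lower shares, and no cell type of the table is known to lack lamin B1, so no level of stray RNA can be given.

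*Lmna*, the A-type lamin gene, was lowest around π and highest between 1.25π and 2π, over a much smaller range. Its mean log2(value + 1) in the same 8 classes was 0.44, 0.48, 0.49, 0.39, 0.39, 0.56, 0.64 and 0.60 in culture 1. In culture 2 the means were 0.47, 0.44, 0.42, 0.35, 0.46, 0.65, 0.66 and 0.70. The lowest 2 classes of culture 1 fall between 0.75π and 1.25π, the lowest of culture 2 between 0.75π and 1π, and the highest 3 of both cultures lie between 1.25π and 2π. Over cells at 1.75π to 2π the mean deposited value was 1.83-fold that at 0.75π to 1π in culture 1 and 2.41-fold in culture 2, and multiplied back by the total UMIs of each cell the mean of the cultures went from 2.12-fold to 1.67-fold. The smooth line was lowest at 1.03π and 0.77π and highest at 1.61π in both cultures, with a range of 0.34 ± 0.13 on the log2 scale (mean ± SD, n = 2 cultures). With other smoothing spans the maximum lay between 1.70π and 1.87π, as means of the cultures, so its position depends on the span. The R² of *Lmna*, 0.0185 in culture 1 and 0.0380 in culture 2, stayed under 0.05, so it was not counted as varying with the position.

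**Figure D2:**
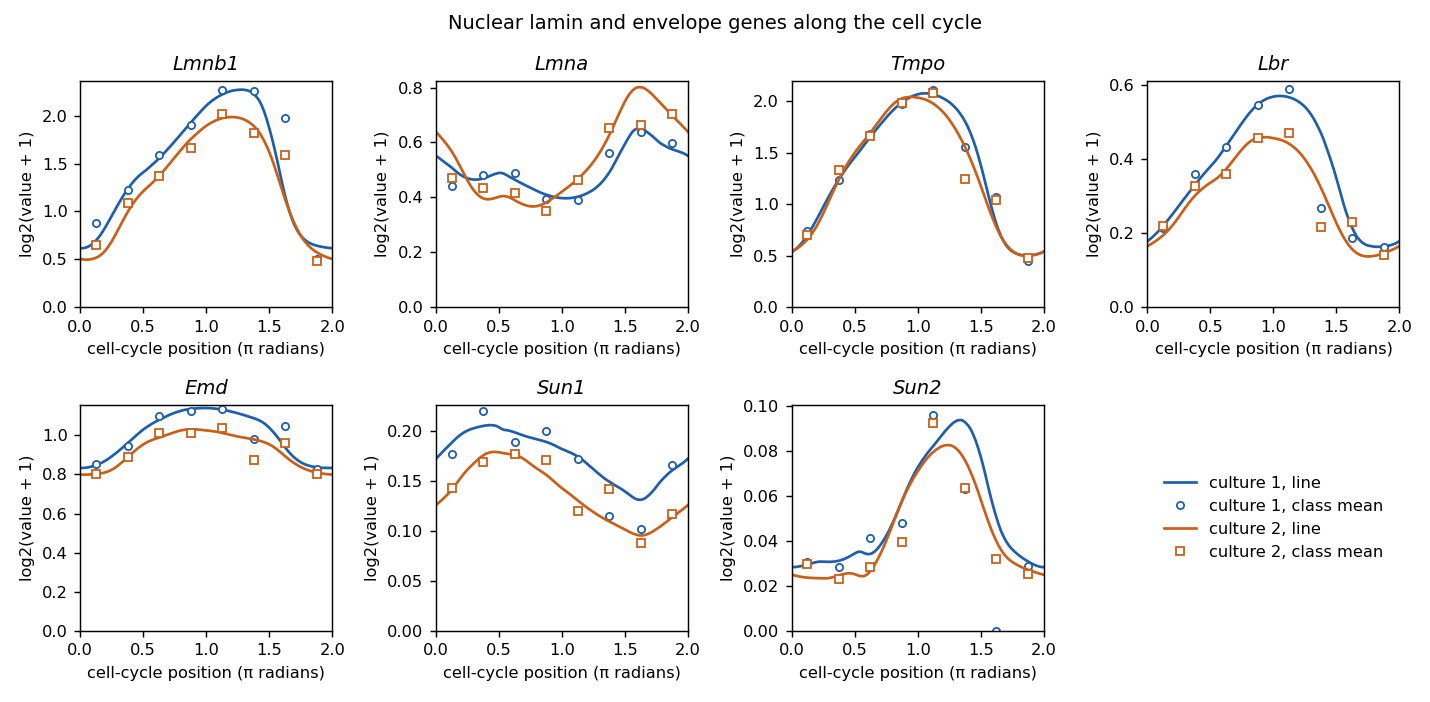
Mean log2(value + 1) of the 7 genes (vertical, from 0, a scale of its own in each panel) against the cell-cycle position in π radians (horizontal). Lines are periodic loess fits and markers the means in classes of 0.25π, blue with circles for culture 1 and orange with squares for culture 2; *Lmnb1*, *Tmpo* and *Lbr* have broad single peaks, *Lmna* has its trough near π, and the panels of *Sun1* and *Sun2* span ranges of 0.08 and 0.06.

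*Tmpo* encodes the lamina-associated polypeptides 2 (thymopoietins), a family of spliced forms of which several are LEM-domain proteins of the inner nuclear membrane and one, LAP2α, is found within the nucleus with A-type lamins. The table counts the gene as a whole, so the forms cannot be told apart. Its level rose earlier than that of *Lmnb1*, peaked near π and was falling while *Lmnb1* was still high. Mean log2(value + 1) in the 8 classes was 0.74, 1.24, 1.68, 1.98, 2.11, 1.56, 1.07 and 0.45 in culture 1. In culture 2 it was 0.71, 1.33, 1.67, 1.98, 2.08, 1.24, 1.04 and 0.48. The cultures differed by at most a few hundredths in the classes up to 1.25π other than the second, where culture 2 was higher. The mean deposited value at 1π to 1.25π was 7.53-fold that at 1.75π to 2π in culture 1 and 6.35-fold in culture 2. The smooth line peaked at 1.06π and 0.95π, with a range of 1.56 ± 0.02 on the log2 scale (mean ± SD, n = 2 cultures). *Tmpo* was detected in 73.1% of cells of culture 1 (interval 71.9% to 74.2%) and in 58.8% of culture 2 (57.6% to 59.9%).

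*Lbr* encodes the lamin B receptor, which spans the inner nuclear membrane, binds B-type lamins and heterochromatin protein 1, and is also a sterol reductase. It rose up to π and fell earlier than both *Tmpo* and *Lmnb1*. In culture 1 its mean log2(value + 1) was 0.21, 0.36, 0.43, 0.54, 0.59, 0.27, 0.19 and 0.16 in the 8 classes. In culture 2 it was 0.22, 0.33, 0.36, 0.46, 0.47, 0.22, 0.23 and 0.14. The largest step down lay between 1π to 1.25π and the next class in both cultures, where the mean deposited value came to 53.9% and 49.5% of the earlier one, or to 27.6% and 36.9% when multiplied back by the total UMIs of each cell. From 1π to 1.25π to the class of 1.75π to 2π the mean deposited value differed 3.88-fold in culture 1 and 3.37-fold in culture 2, and the smooth line peaked at 1.05π and 0.95π with a range of 0.36 ± 0.06 on the log2 scale (mean ± SD, n = 2 cultures). *Lbr* was found in 33.7% of cells of culture 1 (interval 32.5% to 34.9%) and in 20.9% of culture 2 (19.9% to 21.9%). Its R² was 0.104 in culture 1 and 0.0611 in culture 2, the latter close to the threshold of 0.05. Over the cells with a SchwabeCC stage alone, it was no longer counted.

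*Emd* encodes emerin, a LEM-domain protein of the inner nuclear membrane that binds lamins and the product of *Banf1*. Its class means of log2(value + 1) covered 0.83 to 1.13 in culture 1 and 0.80 to 1.04 in culture 2. In both cultures the highest lay at 1π to 1.25π and the lowest at 1.75π to 2π. The mean deposited value at 1π to 1.25π was 1.44-fold and 1.3-fold that at 1.75π to 2π, a smaller difference than those of *Lmnb1*, *Tmpo* and *Lbr* in each culture. The smooth line peaked at 0.99π and 0.89π with a range of 0.27 ± 0.05 on the log2 scale (mean ± SD, n = 2 cultures).

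*Sun1* and *Sun2* encode the SUN-domain proteins that cross the inner nuclear membrane and join nesprins to link the lamina with the cytoskeleton. The 2 genes had different courses. The line of *Sun1* peaked at 0.44π and 0.46π, with class means of log2(value + 1) of 0.10 to 0.22 in the first culture and 0.09 to 0.18 in the other, and its mean deposited value at 1π to 1.25π was 0.98-fold and 0.97-fold that at 1.75π to 2π. Multiplied back by the total UMIs of each cell, this ratio turned to 1.19-fold and 1.26-fold, so no direction is given for *Sun1*. The line of *Sun2* was highest at 1.34π and 1.24π, while its mean deposited value was highest in the class of 1π to 1.25π in both cultures. There it was 3.18-fold and 3.61-fold that at 1.75π to 2π. *Sun2* is sparse. It was detected in 4.94% of cells of culture 1 (interval 4.39% to 5.53%) and in 4.49% of culture 2 (4.02% to 5.0%), with its highest share, 10.4% and 11.2%, at 1π to 1.25π. At 1.5π to 1.75π it was detected in 0 of 64 cells of culture 1, which allows a share of up to 4.69% (3 counts of the total), a limit on cells with a UMI and not on cells that express the gene. The line of *Sun1* ranged over 0.08 ± 0.01 and that of *Sun2* over 0.06 ± 0.004 on the log2 scale (mean ± SD, n = 2 cultures), and neither gene was counted as varying. Under other settings the maximum of *Sun1* lay between 0.24π and 0.74π.

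The promoters of *Lbr*, *Tmpo* and *Sun2* are shown as those of the members with over 3-fold higher mean deposited values at 1π to 1.25π than at 1.75π to 2π that have an entry in the RefSeq promoter table (GRCm38.p6), which holds 6 of the 7 genes. They were chosen after these values were seen, and *Sun2* was not counted as varying. Each sequence is the 250 bases before the transcription start, all 3 on the minus strand, written 5′ to 3′ with matches in capitals. The motifs searched on both strands were the cell-cycle genes homology region or CHR (TTTGAA or TTCGAA, which read TTCAAA and TTCGAA on the other strand), the E2F site (TTTCCCGC, TTTCGCGC, TTTGCCGC or TTTGGCGC) and the CCAAT box (CCAAT).
*Lbr*, chr1:181842402-181842651: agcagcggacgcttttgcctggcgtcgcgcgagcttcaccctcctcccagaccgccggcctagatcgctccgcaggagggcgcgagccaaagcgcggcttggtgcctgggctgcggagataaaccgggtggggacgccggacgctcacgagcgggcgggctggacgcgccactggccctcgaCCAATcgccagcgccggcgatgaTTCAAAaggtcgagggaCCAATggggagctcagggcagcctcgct
*Tmpo*, chr10:91171620-91171869: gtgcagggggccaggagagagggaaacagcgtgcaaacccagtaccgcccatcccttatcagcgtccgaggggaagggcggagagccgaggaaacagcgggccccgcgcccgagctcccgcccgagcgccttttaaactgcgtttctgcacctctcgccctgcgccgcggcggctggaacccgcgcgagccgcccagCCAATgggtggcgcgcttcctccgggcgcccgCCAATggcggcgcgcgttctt
*Sun2*, chr15:79742537-79742786: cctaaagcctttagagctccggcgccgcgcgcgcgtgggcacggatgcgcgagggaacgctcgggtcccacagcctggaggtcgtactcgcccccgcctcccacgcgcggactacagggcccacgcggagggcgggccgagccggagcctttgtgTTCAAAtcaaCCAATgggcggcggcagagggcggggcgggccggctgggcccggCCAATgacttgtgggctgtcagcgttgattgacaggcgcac

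The *Lbr* window holds 1 CHR match, at -45 to -40 from the start, between CCAAT boxes at -68 to -64 and -28 to -24. The *Sun2* window has the same 3 elements in another order, a CHR match at -95 to -90 followed by CCAAT boxes at -85 to -81 and -41 to -37, and it overlaps an exon of the divergent noncoding gene *Gm16576*. The *Tmpo* window shown has CCAAT boxes at -53 to -49 and -21 to -17, whereas a second *Tmpo* start in the table has a CHR match at -28 to -23 and an E2F match at -195 to -188. *Emd* has 1 CCAAT box at -27 to -23, and the windows of *Sun1* hold CCAAT boxes only. Of the *Lmna* windows, 1 has a CCAAT box at -131 to -127 and the other has no match. Among all 32851 promoter windows of this length, 17.1% hold a CHR match, 1.86% an E2F match and 33.8% a CCAAT box. A match shows that the letters are there, and binding was not measured.

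How long each gene stayed high was read from the position at which its mean log2 level, in classes of 0.1π, had come down to the midpoint between its highest and lowest class. In cultures 1 and 2, respectively, this position was 1.79π and 1.78π for *Lmnb1*, 1.5π and 1.34π for *Tmpo*, and 1.29π and 1.23π for *Lbr*. Few cells lie behind some of these positions. In culture 1 the highest class of *Lmnb1*, at 1.4π to 1.5π, held 24 cells, and *Tmpo* passed its midpoint between classes of 24 and 19 cells. The order *Lbr*, *Tmpo*, *Lmnb1* was the same in both cultures. *Lmnb1* passed its midpoint 0.29π after *Tmpo* in culture 1 and 0.44π after it in culture 2, and 0.50π and 0.55π after *Lbr*. Of the landmarks, *Top2a* passed its midpoint at 1.21π in both cultures, close to *Lbr*, *Pcna* at 1.17π and 1.15π, *Ccnb1* at 1.36π and 1.44π, and *Cdc20* at 1.42π and 1.62π, so that *Lmnb1* was later than each of these in both cultures. *Tmpo* was later than *Cdc20* in culture 1 and earlier in culture 2, so no order of these 2 genes can be given. On the rising side *Lmnb1* passed the midpoint at 0.52π and 0.55π and *Tmpo* at 0.43π and 0.39π, while *Lbr* at 0.34π and 0.58π differed more between the cultures than from the other genes.

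The late decline of *Lmnb1* was also seen in the level left in the wider classes. At 1.5π to 1.75π the mean deposited value of *Lmnb1* was 81.0% of that at 1π to 1.25π in culture 1 and 72.3% in culture 2, while *Tmpo* was at 39.3% and 39.4%, *Cdc20* at 22.4% and 37.0% and *Top2a* at 6.69% and 7.69%. Cells in these classes are few, 85 and 64 in culture 1 and 279 and 189 in culture 2 at 1.25π to 1.5π and 1.5π to 1.75π, and they held less RNA, with median UMIs of 14111 and 11882 at 1.25π to 1.5π against 20527 and 17813 at 1π to 1.25π. Multiplied back by the total UMIs of each cell, the level of *Lmnb1* at 1.25π to 1.5π fell from 103% and 88.0% of the earlier class to 61.6% and 63.2%, and at 1.5π to 1.75π it was 54.5% and 55.0%, against 26.1% and 29.5% for *Tmpo* and 22.3% and 39.4% for *Lbr*. On both scales *Lmnb1* kept a larger share of its level than *Tmpo* and *Lbr* at 1.25π to 1.5π and at 1.5π to 1.75π in both cultures. Against *Cdc20* this did not hold at 1.25π to 1.5π of culture 2, where *Cdc20* was at 90.8% of its earlier level, or 64.0% per cell, and *Lmnb1* at 88.0% or 63.2%. At 1.75π to 2π *Lbr* kept the larger share, 25.8% and 29.7%, against 14.2% and 17.1% for *Lmnb1* and 13.3% and 15.7% for *Tmpo*. Per cell these shares were 21.5% and 24.0% for *Lbr*, 11.4% and 13.8% for *Lmnb1* and 10.8% and 12.6% for *Tmpo*. The scale sets whether *Lmnb1* declined at all between 1π to 1.25π and the next class of culture 1.

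**Figure D3:**
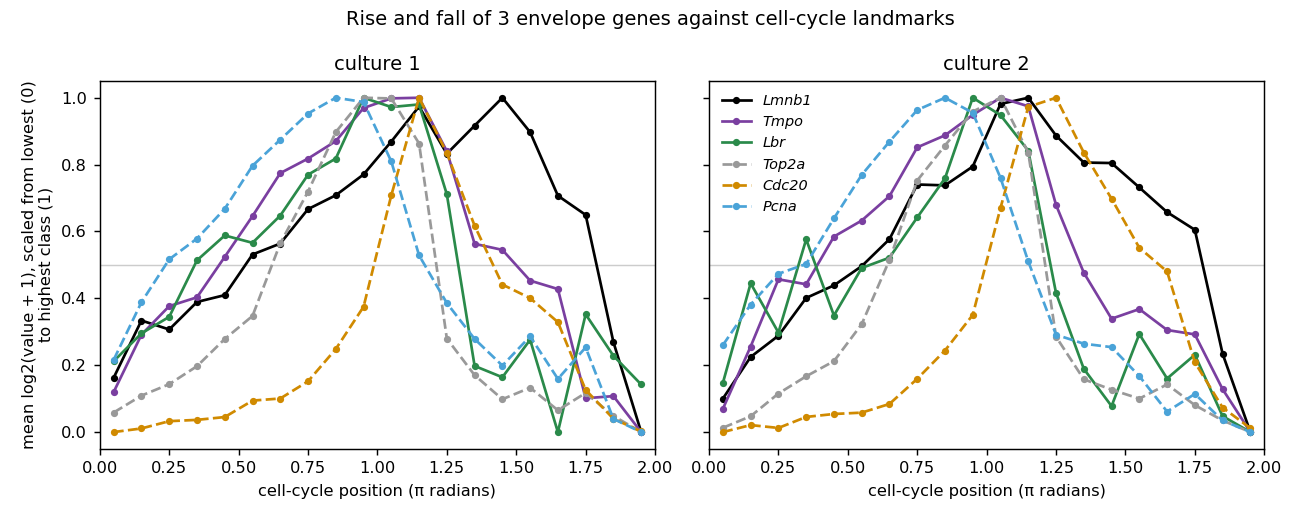
Mean log2(value + 1) in classes of 0.1π, scaled from the lowest (0) to the highest class (1) of each gene, against the cell-cycle position in π radians, with culture 1 on the left and culture 2 on the right. Solid lines are *Lmnb1*, *Tmpo* and *Lbr*, dashed lines the landmarks *Top2a*, *Cdc20* and *Pcna*, and the grey line is the midpoint; *Lmnb1* crosses it on the falling side at 1.79π and 1.78π, to the right of all other lines.

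The authors also deposited stage calls by 3 methods, and the order of the less variable members depended on the method. By Seurat stages, mean log2(value + 1) of *Lmnb1*, which is in neither Seurat list, was 0.62 in G1, 1.59 in S and 2.19 in G2M in culture 1 and 0.53, 1.3 and 1.92 in culture 2. *Lmna* was 0.56, 0.47 and 0.38 in culture 1 and 0.66, 0.42 and 0.48 in culture 2, highest in G1 in both, with S and G2M in a different order in the 2 cultures. *Emd* was 0.84, 1.06 and 1.13 in culture 1 and 0.80, 0.96 and 1.0 in culture 2, in the same order as *Lmnb1*. *Sun1* was highest in Seurat S, at 0.20 and 0.17. *Sun2* was highest in G2M, at 0.08 in both cultures against 0.03 in G1. *Tmpo*, 0.53, 1.62 and 2.09 in culture 1, and *Lbr*, 0.18, 0.42 and 0.59, helped to define the G2M stage, so their order is no independent observation. Whether cyclone or SchwabeCC use any of the members for their calls was not determined here, so those stages may not be independent of them either.

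By cyclone, which called 133 cells of culture 1 and 56 of culture 2 as S, *Lmnb1* was at 1.09 in G1, 2.07 in S and 2.23 in G2M in culture 1 and at 0.82, 1.86 and 1.99 in culture 2, in the same order as by Seurat. *Lmna* was again highest in G1, at 0.51 and 0.60. *Sun1*, in contrast, was lowest in S in both cultures, at 0.16 and 0.09, against 0.18 and 0.14 in G1. *Emd* was at 0.95 in G1, 1.11 in S and 1.13 in G2M in culture 1, and at 0.85, 0.79 and 1.03 in culture 2, where S was below G1. No order of the stages is therefore given for *Sun1*, or for S against G1 in *Emd*.

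The finer SchwabeCC stages separated these genes less. *Lmnb1* was highest in S in culture 1, at 1.65, and in G2.M in culture 2, at 1.37, and in both cultures it was lowest in M.G1, at 1.17 and 0.89. *Tmpo* was highest in S in both cultures, at 1.66 and 1.35, and lowest in M.G1, at 0.93 and 0.72. *Lbr* followed the same order at its ends, with 0.46 and 0.35 in S and 0.26 and 0.23 in M.G1. *Lmna* was lower in S than in M.G1 in both cultures, at 0.39 against 0.55 and 0.47 against 0.64. This method left 2451 cells of culture 1 and 3151 of culture 2 without a stage. The paper describes many missing labels and wrongly assigned cells for this method. By these calls the landmark *Top2a*, highest near π along the position, was also highest in S, at 2.23 and 1.75. In G2 it was at 1.47 and 1.46. *Ccnb1* and *Cdc20* were highest in G2.M in both cultures. Whether the maxima of *Tmpo* and *Lbr* in S, and the weaker separation, reflect the genes or the calls was not tested.

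**Figure D4:**
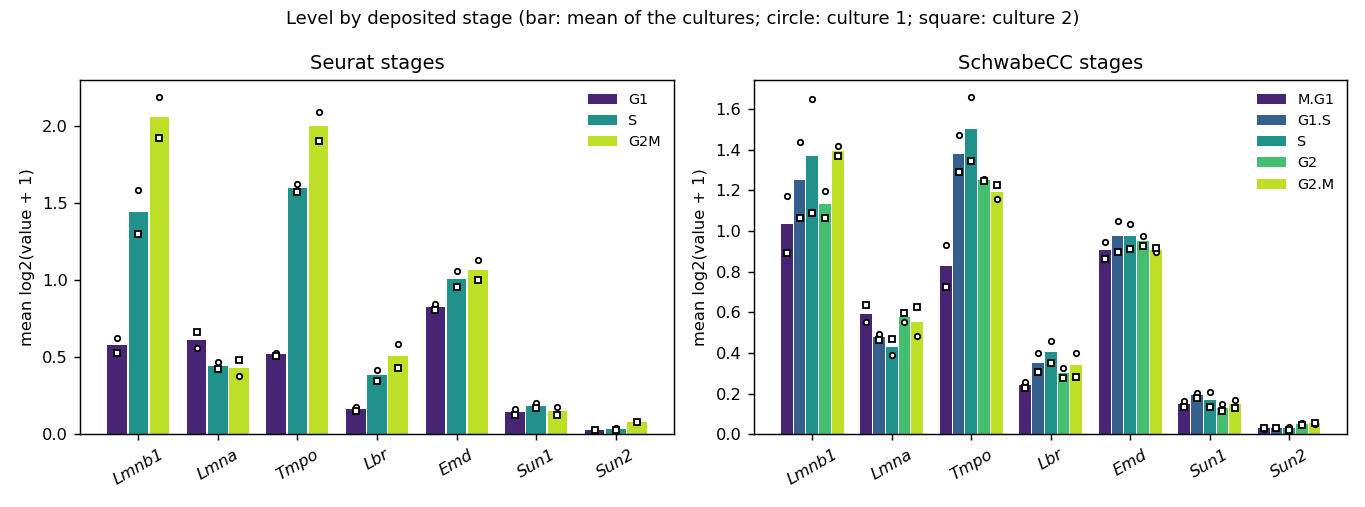
Mean log2(value + 1) (vertical, from 0) of each of the 7 genes by Seurat stage (left) and SchwabeCC stage (right). Bars are the mean of the cultures, circles culture 1 and squares culture 2; *Lmnb1* and *Tmpo* rise from G1 through S to G2M of Seurat, and across SchwabeCC stages their lowest bars are those of M.G1.

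The genes whose course along the cycle was most like that of each varying member were named by the correlation of class means, 20 classes in each of 2 cultures, or 40 points that share the position and the libraries. For *Lmnb1* these were the chromatin protein gene *Hmgb3* (r = 0.959), the centromere gene *Cenpm* (0.958) and the cyclophilin gene *Ppih* (0.95). For *Tmpo* they were the RNA-binding protein gene *Lsm2* (0.962), the tubulin gene *Tubb5* (0.959) and *Rrm2*, a subunit of ribonucleotide reductase (0.951). For *Lbr* they were the pericentrin gene *Pcnt* (0.930), the ubiquitin-conjugating enzyme gene *Ube2t* (0.926) and the kinetochore gene *Ska3* (0.925). Among the members, the correlation was 0.856 between *Tmpo* and *Lbr*, 0.727 between *Lmnb1* and *Tmpo* and 0.446 between *Lmnb1* and *Lbr*. *Emd*, which was not counted as varying, had 0.776 with *Tmpo*, 0.713 with *Lmnb1* and 0.662 with *Lbr*. *Lmna* ran against *Lbr* (-0.657) and *Tmpo* (-0.598) and had -0.092 with *Lmnb1*.

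After the position and the depth of the cell were fitted, correlations between members were weak. Residuals from the fit of position and total UMIs were correlated across cells in each culture, as a description of cells that share a library. Of the 21 pairs of members, *Lmnb1* and *Tmpo* had the highest correlation, 0.10 in culture 1 and 0.083 in culture 2, and no other pair exceeded 0.078 in absolute value in either culture. With other genes, *Lmnb1* reached 0.1 in both cultures for 24 genes, led by the microtubule regulator *Stmn1* (0.24 and 0.19), the chromatin-associated prothymosin gene *Ptma* (0.24 and 0.17) and *Hmgb1* (0.24 and 0.16). *Tmpo* reached it for *Hmgb2* alone (0.11 and 0.10). The lower R² with the position was 0.369 for *Stmn1*, 0.280 for *Ptma*, 0.239 for *Hmgb1* and 0.739 for *Hmgb2*. Whether the fit left part of their course along the cycle in the residuals was not tested. *Lmna* reached it for 11 genes, led by the cyclin-dependent kinase inhibitor gene *Cdkn1a* (0.18 and 0.19), *S100a10* (0.14 and 0.21) and *Clic1* (0.14 and 0.19), and the intermediate filament gene *Vim* was among them (0.12 and 0.15). The lower R² with the position was 0.0515 for *Cdkn1a*, above the threshold of 0.05, 0.0246 for *S100a10*, 0.0181 for *Clic1* and 0.00373 for *Vim*. For these genes too, a course along the cycle left in the residuals was not tested. For *Lbr*, *Emd*, *Sun1* and *Sun2* no gene reached 0.1 in both cultures. All of these values are weak, and in sparse counts no relation between genes is read from them.

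Other genes of the nuclear envelope were set beside the members from 4 lists of 44 genes, of which 35 are in the table. Of these 35, 6 varied with the position in both cultures, 0 of 4 in the list of lamin processing, 2 of 11 among inner membrane and nesprin genes, 2 of 13 among genes of envelope breakdown and resealing and 2 of 7 among chromatin and sterol partners, beside the 4.01% of all genes. The median lower R² of the 35 genes was 0.00325. The inner membrane gene *Nrm* (nurim) was highest at 0.81π, with a lower R² of 0.107, and *Ankle1*, a LEM-domain endonuclease gene, at 1.13π with 0.128. *Vrk1*, whose kinase phosphorylates the product of *Banf1*, was highest at 1.01π with a lower R² of 0.129, and its mean deposited value at 1π to 1.25π was 5.18-fold and 3.91-fold that at 1.75π to 2π. *Cdca2*, which encodes a chromatin-bound regulator of protein phosphatase 1 active at mitotic exit and is in the Seurat G2M list, was highest at 1.03π with 0.274.

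Of the 3 heterochromatin protein 1 genes, which encode partners of the lamin B receptor, *Cbx5* and *Cbx1* were counted as varying. *Cbx5*, which is in the Seurat G2M list, was highest at 0.86π with a lower R² of 0.125, and *Cbx1* at 1.08π with 0.0634, while *Cbx3* had 0.0209. At 1π to 1.25π the mean deposited value of *Cbx1* was 1.79-fold and 1.80-fold that at 1.75π to 2π and that of *Cbx5* 1.71-fold and 1.69-fold, below the 3.88-fold and 3.37-fold of *Lbr*. On the log2 scale their lines ranged over 0.53 and 0.80 as means of the cultures, more than the 0.36 of *Lbr*. The nesprin gene *Syne2* lay just under the threshold at 0.0471, and *Syne1* was at 0.00317. Among genes of lamin processing, the farnesyltransferase subunit gene *Fnta* had 0.00814 and the protease gene *Zmpste24*, which matures lamin A, 0.00128. The genes of the ESCRT machinery that seals the new envelope, *Chmp4b*, *Chmp2a*, *Ist1*, *Vps4a* and *Vps4b*, and *Spast*, which encodes the microtubule-severing enzyme that works with it, all lay between 0.000567 and 0.0180, under the threshold.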

How the data were processed

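Single-cell RNA-seq of 2 neurosphere cultures was analysed. According to the methods and the submitters' processing notes, the authors quantified spliced reads with alevin (Salmon 1.3.0) against GRCm38 with GENCODE, left out cells that were outliers in UMIs, genes, doublet score or mitochondrial share, as well as rarely expressed genes (Seurat 3.2.2 is also named). No doublet caller was run here. The deposited expression values are a signal scaled by the authors for the depth of each cell, linear and not whole numbers, so counts were not recovered and no count model or thinning was used. The authors deposited total UMIs per cell as estimated counts, and the cell-cycle position and stages as other values.

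Here log2(value + 1) was fitted in each culture with 2 harmonics of the position, and with periodic loess (degree 2, span 0.3, 401 positions). The plan was carried out as written. Only the R² and the loess maximum were tested on simulated data, permuted values of genes of this table with a known curve added to some. Genes as sparse as *Sun2* were not among them, and the other steps were not tested in this way. Symbols were found for 10662 of 10666 genes. The genes named are the members, the cycle landmarks, the 3 genes with the most similar course for each varying member, up to 3 genes with a residual correlation of at least 0.1 in both cultures, the listed envelope genes and cell-type markers. *Vim* is named as a marker. The members and lists were chosen with earlier results of these data known. With 1 condition, no test between groups was possible. Alternatives were other spans, thresholds, pseudocounts, positions, cell sets, cell scaling and each culture alone. Intervals are exact binomial at 95%, and a share of 0 is given with the limit of 3 counts. R 4.3.3 with Seurat 5.3.0, for its gene lists, and Python 3.11.15 with numpy 2.4.6, pandas 2.3.3 and scipy 1.17.1 were used.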

Additional observations from a re-analysis of the deposited data

How the results depend on the processing

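The count of 3 varying members (*Lmnb1*, *Tmpo* and *Lbr*) was the same with a pseudocount of 0.1, with total UMIs in the fit, without the cells' depth scaling, with the rebuilt position, with genes detected in at least 10% of cells and at a threshold of 0.02. It was 2, without *Lbr*, at a threshold of 0.1 and in cells with a SchwabeCC stage. All genes counted numbered 428 of 10666, against 890 at a threshold of 0.02, 240 at 0.1, and 454 and 597 in culture 2 and culture 1 alone. They numbered 588 without the depth scaling, 422 with the rebuilt position, 421 with a pseudocount of 0.1 and 393 in cells with a SchwabeCC stage. Among genes detected in at least 10% of cells, 372 of 6896 were counted, and 3 of the 6 members tested. The number of members with a maximum within 0.25π of π was 4, and 3 to 5 under other spans and in each culture alone, where *Lmnb1* and *Sun2* moved across the limit. The distance between the midpoints of *Lmnb1* and *Tmpo*, 0.365π, was 0.29π to 0.44π in single cultures and 0.299π to 0.471π under other settings, the last with values multiplied back by total UMIs. This scaling took the *Lmna* difference from 2.12-fold to 1.67-fold, and single cultures gave 1.83-fold to 2.41-fold. The midpoint distance, the *Lmna* difference and a span of 0.1 were added after seeing the data. Of 175 values of single members under alternatives, 111 stayed within 1 SD of the cultures and 64 moved by more. Leaving out culture 1 gave 18 that stayed and 3 that moved, and leaving out culture 2 gave 17 and 4. With an SD from the same 2 cultures these outcomes are fixed by arithmetic, apart from ties, so they say nothing about stability. With a pseudocount of 0.1 the log2 range went from 1.58 to 3.33 for *Lmnb1*, 1.56 to 3.40 for *Tmpo*, 0.36 to 1.16 for *Lbr*, 0.34 to 0.80 for *Lmna*, 0.27 to 0.73 for *Emd*, 0.08 to 0.29 for *Sun1* and 0.06 to 0.22 for *Sun2*, so the ranges hold for a pseudocount of 1 only. Leaving out cells with microglial, endothelial or mesenchymal markers was not run, since none of those markers is in the table. No paired analysis was possible because there is 1 group. The values could not be thinned to 1 depth, and the SD of 2 cultures is itself imprecise.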
